A study of Mus musculus with 6 samples.

Results

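The genes described here encode the machinery of ER-associated degradation (ERAD), which was measured at the RNA level in LLC (Lewis lung carcinoma), a line of mouse lung cancer cells. The set is a list of 35 gene symbols, taken by name from a deposited table of 55291 genes and sorted into 4 steps of the pathway. A gene was tested if its normalised counts averaged 10 or more across all libraries, which held for 34 of the 35 members and 13199 genes in all. The exception among the members was Derl3. The Calr KO group was 3 wells of LLC cells that had transiently received plasmids with Cas9 and a guide against Calr, the gene of the ER chaperone calreticulin. The control group was 3 wells of cells given Cas9 and a control guide, whose genotype the labels write as WT. Both were cultured for 10 days, seeded and collected 48 hours later, untreated. By the design text the wells of a group were seeded from 1 edited culture, and no selection of clones is described, so the p-values measure the spread between wells and not between independent knockouts. In such bulk RNA, fewer cells that express a gene and less RNA per cell cannot be told apart.

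ERAD removes proteins that fail to fold in the ER. Glycoproteins that have left the calnexin and calreticulin cycle have their mannoses trimmed and are bound by lectins, which bring them to a membrane ubiquitin ligase built around HRD1 and its partner SEL1L. Ubiquitin is added on the cytosolic side, the ATPase p97 pulls the substrate out of the membrane, and shuttle proteins carry it to the proteasome. In mammalian cells several of these genes are known targets of ATF6 and XBP1, transcription factors of the unfolded protein response.

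The 6 libraries summed to between 14040692 and 14099985 normalised counts, and the worth of 1 read was estimated at 0.945 to 1.04 of these units. Calr mRNA had 4467, 4216 and 4453 normalised counts in the Calr KO libraries, against 10711, 10202 and 11047 in the controls. All 3 Calr KO libraries were below all 3 controls, and transcript remained in each of them (log2 change -1.28, SE 0.04, limma adjusted p = 7.9e-07). Of all genes tested, 26 rose and 11 fell. Of 7 carcinoma markers 4 passed the minimum, among them Vim, Krt8 and Krt18, while Krt19 and Epcam were listed at 0 in every library and Cdh1 was near 0. Their summed level was 41995 to 44247 in Calr KO and 44800 to 47378 in control libraries, most of it Vim. Of the markers of other cells, Adgre1, Cd3e, Sftpc, Scgb1a1 and Nkx2-1 were listed at 0 throughout, 1 of 6 macrophage and lymphocyte markers passed the minimum, and 4 of 6 endothelial and fibroblast markers did. Those 6 summed to 1902 to 2217 in Calr KO and 1727 to 2201 in control libraries, nearly all of it Pdgfra. Among them Dcn, a fibroblast gene, had 33.2, 27.9 and 34.5 in Calr KO and 12.04, 16.7 and 17.7 in control libraries (log2 change 1.01, limma adjusted p = 0.31), and Cdh5, an endothelial gene, had 6.80, 5.91 and 37.4 in Calr KO and 3.59, 2.98 and 4.17 in control libraries (limma adjusted p = 0.57). Both were higher in every Calr KO library, and their part in the differences below was not tested. Mitochondrially encoded transcripts made up 2.89%, 2.90% and 2.97% of the Calr KO libraries and 2.80%, 2.78% and 2.78% of the controls, and the part of this difference in those below was not tested.

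No ERAD gene passed the test over all genes. With an adjusted p under 0.05 (limma, Benjamini-Hochberg over all genes tested), 0 of 34 members rose and 0 fell, where 0.197% of all genes tested rose and 0.0833% fell, together 0.28%. The smallest adjusted p among them was 0.29, for Edem1. At an unadjusted p under 0.05 there were 5 members higher in Calr KO, 14.7% of the 34 against 4.6% of all genes tested, and 1 lower, 2.94% against 4.28%. In either direction 8.88% of all genes tested had such a p. The 5 were Edem1, Edem2, Sel1l, Syvn1 and Selenos, and the lower one was Os9. The count of 5 was 3 when Calr KO replicate 1, 2 or 3 or control replicate 3 was left out, and the count of 1 was 0 without Calr KO replicate 2 or control replicate 1. In 9 members every Calr KO library lay above every control, 26.5% of the 34 against 7.57% of all genes tested. In 2 members every Calr KO library lay below every control, 5.88% against 7.28%. Groups apart in either direction were found for 14.8% of all genes tested. Among the controls, replicate 2 was the lowest in 15 of the 34 members. With it left out, 10 members had every Calr KO library above every control. Leaving out a library can only keep or raise this count, and the share of all genes without that library is not given. Without control replicate 2 the fitted log2 change was smaller for Edem1 (0.18), Syvn1 (0.20) and Selenos (0.17), and larger for Edem2 (0.21) and Sel1l (0.45).

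The changes were small. The median log2 change of the 34 members was 0.024, against 0.00036 for all genes tested, with a range of -0.14 to 0.34. Leaving out Calr KO replicate 3 gave 0.041, and leaving out control replicate 3 gave 0.040. Values after ± are SDs over 3 libraries. In 26 of the 34 members the fitted change was above 0, against 6617 of all 13199 genes tested. In 25 members its size was under 0.1, against 7301 of all genes tested. The 95% interval lay inside 0.5 on the log2 scale in both directions, a 1.41-fold change, for 31 of the 34, the exceptions being Sel1l, Tmub1 and Ngly1. It did so for 9061 of all genes tested. Summed over all 35 members, the machinery took 0.311% of the normalised counts in each Calr KO library, against 0.301%, 0.300% and 0.303% in the controls.

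**Figure D1:**
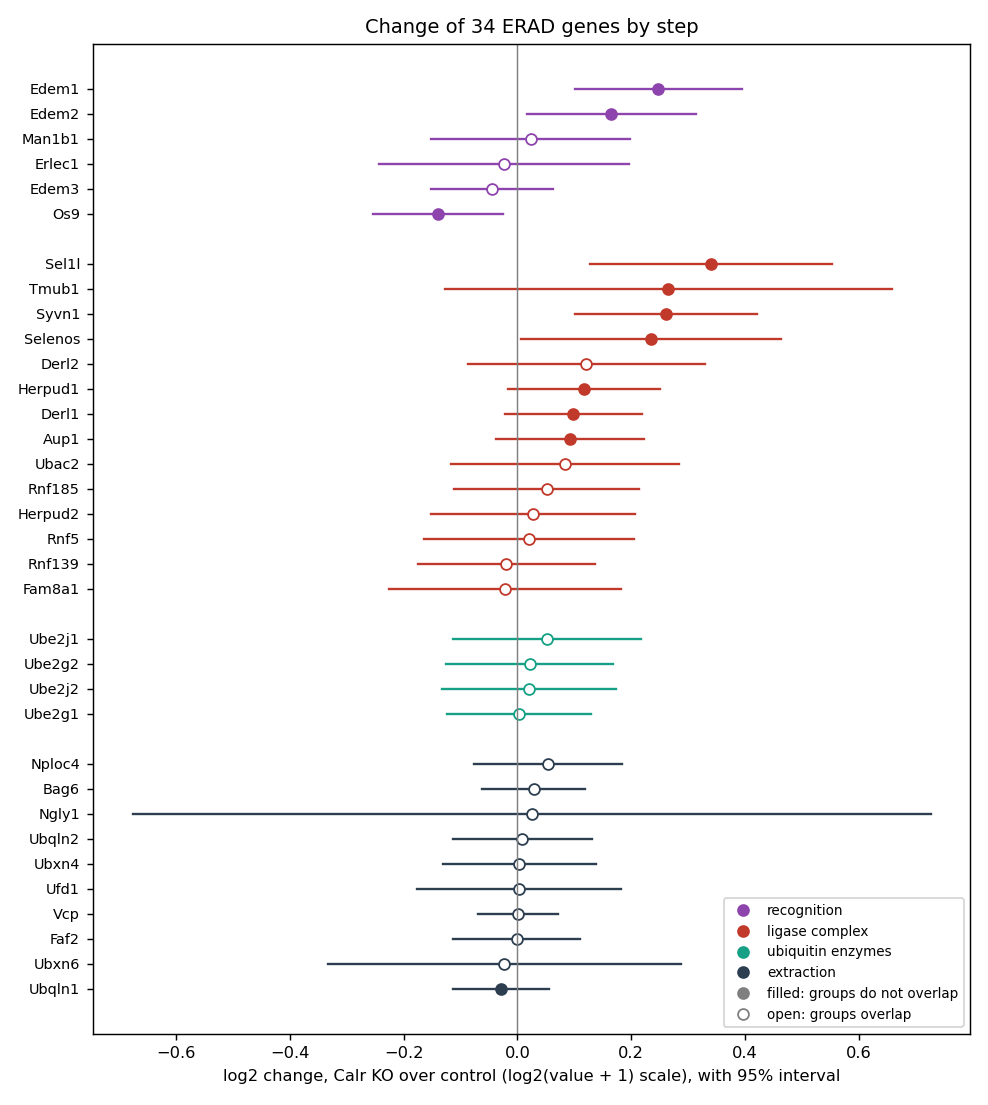
Fitted log2 change of each tested ERAD gene in Calr KO over control cells on the log2(value + 1) scale, with its 95% interval, grouped by step; filled points mark genes whose 2 groups of 3 libraries did not overlap. The genes farthest to the right belong to the ligase complex and to recognition, while the ubiquitin enzymes and the extraction genes lie close to 0.

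The recognition step held changes in both directions. Its 6 genes encode the mannose-trimming proteins of the EDEM family, the mannosidase Man1b1, and the lectins Os9 and Erlec1, which bind the trimmed glycan and hand the substrate to the ligase. None passed over all genes tested, 3 had a fitted change above 0 and 3 below, and the median was 0.00021, with a range of -0.013 to 0.033 when each library was left out in turn.

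Edem1, a known target of the unfolded protein response, had 1809, 1901 and 1880.2 normalised counts in Calr KO libraries, against 1669, 1419 and 1631 in controls. The groups did not overlap, and control replicate 2 was the lowest of the 6. Its log2 change was 0.25 (SE 0.07, 95% interval 0.10 to 0.39, limma adjusted p = 0.29), 1.19-fold.

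Edem2, the family member that starts mannose trimming, had 738, 739 and 731 normalised counts in Calr KO and 641, 701 and 629 in control libraries. The Calr KO wells were nearly equal to each other (736 ± 4.13), the controls spread more (657 ± 38.5), and the groups did not overlap. Its log2 change was 0.17 (SE 0.07, limma adjusted p = 0.51). Edem3, which trims further mannoses, went the other way in sign, with 1349 ± 26.5 in Calr KO and 1391 ± 27.4 in control cells and overlapping groups (log2 change -0.04, limma adjusted p = 0.84).

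Os9 was the one recognition gene that was lower in every Calr KO well. It had 1189, 1167 and 1176 normalised counts in Calr KO libraries, against 1349, 1263 and 1283 in controls, a log2 change of -0.14 (SE 0.05, 95% interval -0.25 to -0.03, limma adjusted p = 0.48). Its relative Erlec1 had 328 ± 21.8 in Calr KO and 334 ± 28.1 in control cells (log2 change -0.02), and Man1b1 had 1318 ± 142 in Calr KO and 1292 ± 56.2 in control cells (log2 change 0.02). Both overlapped between groups.

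The ligase complex held 7 of the 9 members that were higher in every Calr KO library, 50% of its 14 tested genes against 7.57% of all genes tested. Of the 14, 12 had a fitted change above 0, against 6617 of all 13199 genes tested. The median log2 change of the step was 0.096, with a range of 0.070 to 0.12 when each library was left out in turn. None passed over all genes tested. The step holds the ligase Syvn1, its cofactors, the derlins through which substrates cross the membrane, and other ER ligases.

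Sel1l, the adaptor that stabilises HRD1 and receives substrates from the lectins, showed the highest fitted change of all members. It had 1672, 1723 and 1624 normalised counts in Calr KO libraries, against 1147, 1546 and 1299 in controls. The Calr KO wells were alike (1673 ± 49.9), whereas the controls were widely spread (1331 ± 202), and the highest control stood close under the lowest Calr KO library. The log2 change was 0.34 (SE 0.09, 95% interval 0.13 to 0.55, limma adjusted p = 0.32), 1.27-fold. Without control replicate 2, the highest control, it was 0.45 with a limma adjusted p of 0.061. That p was the lowest of any member under any setting tried. Without control replicate 1, the lowest control, the Sel1l change was 0.24 with a limma adjusted p of 0.48. Over the 16 settings of Sel1l the limma adjusted p ran up to 0.59.

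Syvn1, which encodes the HRD1 ligase itself, had 1327, 1225 and 1394 normalised counts in Calr KO and 1138, 1009.7 and 1146 in control libraries. The groups did not overlap, at a log2 change of 0.26 (SE 0.07, 95% interval 0.10 to 0.42, limma adjusted p = 0.31), 1.20-fold. Selenos, a selenoprotein that recruits p97 to the membrane, had 341, 316 and 327 normalised counts in Calr KO libraries, against 312, 253 and 273 in controls. Its lowest Calr KO library and its highest control nearly met, and its log2 change was 0.23 (SE 0.10, limma adjusted p = 0.55).

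A further 4 members of the step did not overlap, of which Aup1 was in the rule for named genes and the others were chosen after their values were seen. Herpud1, a scaffold of the HRD1 complex induced by ER stress, had 828, 891 and 837 normalised counts in Calr KO and 789, 771 and 795 in control libraries (log2 change 0.12, SE 0.06, limma adjusted p = 0.62). Derl1, a derlin, had 1321, 1231 and 1219 in Calr KO libraries, against 1163, 1157 and 1199.8 in controls (log2 change 0.10, limma adjusted p = 0.65). Both were separated by narrow gaps.

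Aup1, which docks the enzyme UBE2G2, had 1339, 1451 and 1279 normalised counts in Calr KO and 1276, 1277 and 1257 in control libraries, so that Calr KO replicate 3 stood just above the highest control (log2 change 0.09, limma adjusted p = 0.71). Of its exon bases 23% are shared with Htra2 on the opposite strand. Tmub1, a membrane protein with a ubiquitin-like domain and a low level here, had 68.3, 67.9 and 74.5 in Calr KO libraries, against 63.8, 49.5 and 62.4 in controls (log2 change 0.27, 95% interval -0.13 to 0.66, limma adjusted p = 0.73). At such a level the interval is wide, and the change could not be told from 0.

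The remaining genes of the step overlapped between groups. Derl2 had 811 ± 94.7 in Calr KO and 743 ± 55.2 in control cells (log2 change 0.12, limma adjusted p = 0.76). The fitted log2 changes of Herpud2, Ubac2, Rnf185 and Rnf5 were 0.03, 0.08, 0.05 and 0.02, and those of Rnf139 and Fam8a1 -0.02 each. Herpud2 is a relative of Herpud1, and Ubac2 a membrane protein that binds ER ligases. Rnf5, Rnf139 and Rnf185 encode other ER ubiquitin ligases, and Fam8a1 a cofactor of HRD1. Exons of Rnf5 and Rnf139 share 24.7% and 26.2% of their bases with other genes. Derl3, a derlin of secretory tissues, was under the minimum, with 0, 7.35 and 3.12 normalised counts in Calr KO and 0.809, 0 and 4.41 in control libraries, and was not tested.

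**Figure D2:**
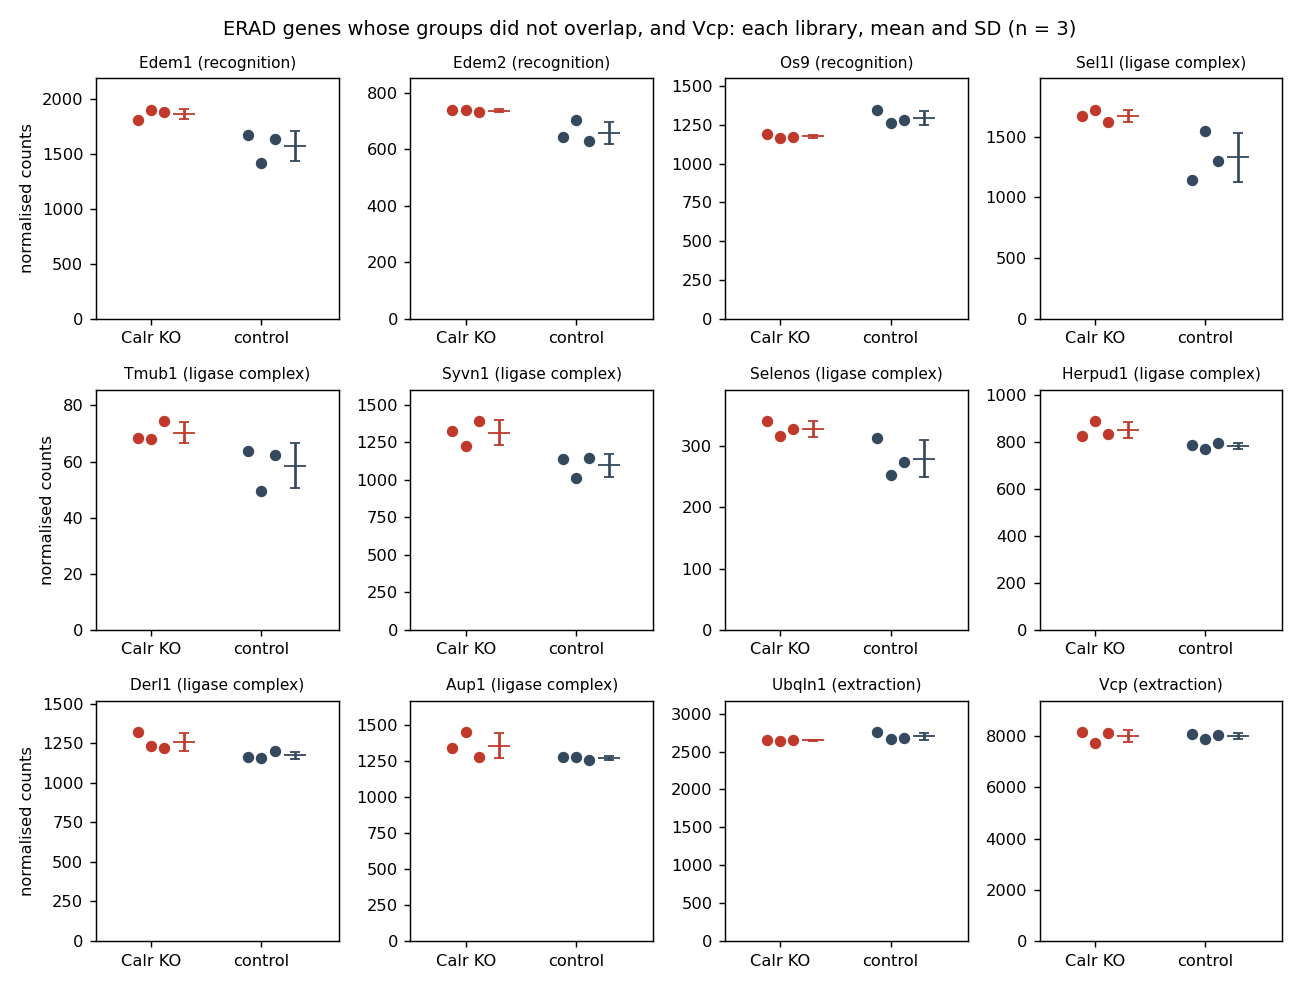
Normalised counts in each library (points) with the mean and SD (n = 3) for the 11 ERAD genes whose Calr KO and control libraries did not overlap, and for Vcp, the most abundant member. Every axis starts at 0, so the panels show how small the gaps are: Sel1l averaged 1673 in Calr KO and 1331 in control cells, and Vcp 8014 in Calr KO and 8005 in control cells.

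Promoter windows are shown for Syvn1, Sel1l, Edem1, Herpud1 and Derl3, which are among the known targets of the unfolded protein response. That of Selenos is shown as well, a member higher in Calr KO at an unadjusted p under 0.05 (limma). Windows of the other members, among them Ube2j1 and Vcp, were searched but are not printed. The windows, from RefSeq on GRCm38.p6, run from 250 bases before to 50 bases after the transcript start, and 28 of the 35 members matched, with 32 windows. The motifs searched, on both strands, were the ER stress element (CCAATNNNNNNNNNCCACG), the ER stress element II (ATTGGNCCACG), the UPR element (TGACGTGG) and the bare CCACG core, which all 3 of the others contain on one strand or the other. Capitals mark the fixed letters of any match. Syvn1 (chr19:6046326-6046625, plus strand) and Derl3 (chr10:75893148-75893447, plus strand) hold the ER stress element, and Herpud1 (chr8:94386179-94386478, plus strand) the ER stress element II. Edem1 (chr6:108828391-108828690, plus strand), Sel1l (chr12:91849108-91849407, minus strand) and Selenos (chr7:66079399-66079698, plus strand) hold the core alone, at 2, 1 and 3 places.
Syvn1: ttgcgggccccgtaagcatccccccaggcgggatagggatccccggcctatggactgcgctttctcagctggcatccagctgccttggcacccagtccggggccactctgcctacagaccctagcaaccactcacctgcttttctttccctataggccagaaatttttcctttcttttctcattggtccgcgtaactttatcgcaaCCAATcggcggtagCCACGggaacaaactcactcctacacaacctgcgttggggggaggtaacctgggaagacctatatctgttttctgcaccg
Herpud1: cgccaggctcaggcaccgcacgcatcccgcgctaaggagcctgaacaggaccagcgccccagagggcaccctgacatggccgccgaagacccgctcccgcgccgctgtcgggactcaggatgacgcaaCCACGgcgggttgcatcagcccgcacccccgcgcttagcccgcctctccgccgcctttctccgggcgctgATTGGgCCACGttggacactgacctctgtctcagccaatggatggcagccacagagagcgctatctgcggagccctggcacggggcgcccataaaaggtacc
Derl3: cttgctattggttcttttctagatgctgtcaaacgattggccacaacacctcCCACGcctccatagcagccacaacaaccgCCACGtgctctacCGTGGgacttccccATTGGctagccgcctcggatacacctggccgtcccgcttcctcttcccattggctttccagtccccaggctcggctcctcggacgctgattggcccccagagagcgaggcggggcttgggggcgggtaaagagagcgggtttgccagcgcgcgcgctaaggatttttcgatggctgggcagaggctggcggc
Edem1: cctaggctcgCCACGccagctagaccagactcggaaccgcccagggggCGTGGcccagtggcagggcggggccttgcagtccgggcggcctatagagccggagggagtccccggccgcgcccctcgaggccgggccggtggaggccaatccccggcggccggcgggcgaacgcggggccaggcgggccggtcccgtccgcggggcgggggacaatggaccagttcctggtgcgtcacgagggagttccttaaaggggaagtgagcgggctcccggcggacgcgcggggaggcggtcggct
Sel1l: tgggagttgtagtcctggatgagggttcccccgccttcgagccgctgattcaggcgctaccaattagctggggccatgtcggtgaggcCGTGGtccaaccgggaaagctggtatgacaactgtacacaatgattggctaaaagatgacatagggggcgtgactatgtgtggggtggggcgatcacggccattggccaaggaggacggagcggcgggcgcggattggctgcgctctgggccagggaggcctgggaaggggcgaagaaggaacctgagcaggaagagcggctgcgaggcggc
Selenos: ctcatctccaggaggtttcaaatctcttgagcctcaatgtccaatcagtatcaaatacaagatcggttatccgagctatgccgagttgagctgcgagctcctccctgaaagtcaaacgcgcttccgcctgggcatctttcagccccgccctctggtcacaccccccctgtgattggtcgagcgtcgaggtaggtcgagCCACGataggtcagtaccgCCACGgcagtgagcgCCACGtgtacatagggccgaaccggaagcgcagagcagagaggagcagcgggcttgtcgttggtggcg

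Counted from the transcript start, the element lies at -44 to -26 in Syvn1, at -156 to -138 in Derl3, as its reverse complement, and at -52 to -42 in Herpud1. The ER stress element was found in 2 of the 28 members (7.14%) and in 0.137% of all 27025 genes with a window. The ER stress element II was found in 1 of 28 (3.57%) and in 0.0444% of all, and the UPR element in 2 of 28 (7.14%), Ube2j1 and Vcp, and in 0.714% of all. The core was found in 20 of 28 members (71.4%) and in 35.5% of all genes. Edem2 and Os9, which differed in opposite directions, each had it at 1 place. The genes behind these shares were not matched for base composition. G and C made up 47% (Rnf185) to 78.7% (Ube2j1) of the bases in the member windows. Of the members with a complete element, Syvn1 had a log2 change of 0.26, Herpud1 0.12, Ube2j1 0.05 and Vcp 0.0013, and Derl3 was under the minimum. A match describes the letters of the window and does not show that a factor binds there.

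The 4 ubiquitin-conjugating enzymes all overlapped between groups, where the groups of 14.8% of all genes tested did not. They pass ubiquitin to the ligases: Ube2j1 and Ube2j2 are anchored in the ER membrane, and Ube2g1 and Ube2g2 are soluble. None passed over all genes tested, and the median log2 change was 0.021, with a range of -0.020 to 0.038 when each library was left out in turn.

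Ube2j1 had 1226, 1386 and 1156 normalised counts in Calr KO and 1217, 1151 and 1259.6 in control libraries, with Calr KO replicate 2 the highest of the 6 (log2 change 0.05, limma adjusted p = 0.88). Without that library its change was -0.02. Ube2j2 had 773, 799.7 and 727 in Calr KO and 713, 764 and 791 in control libraries (log2 change 0.02, limma adjusted p = 0.96). Ube2g2, the enzyme that Aup1 docks, had 1023, 987 and 1013 in Calr KO and 921, 1068 and 995 in control libraries (log2 change 0.02, limma adjusted p = 0.96). Exons of Ube2g2 share 10.3% of their bases with other genes. In both enzymes the control libraries spanned nearly all of the Calr KO values. The signs of Ube2j2 and Ube2g2 also turned when 1 library was left out. Ube2g1 had a log2 change of 0.0027 (95% interval -0.12 to 0.13).

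Extraction genes had small changes in both directions. Of the 10 members that pull the substrate out and carry it on, none passed over all genes tested. Every change was under 0.1 in size, where 7301 of all 13199 genes tested were. The median was 0.0030, with a range of -0.0039 to 0.017 when each library was left out in turn. Vcp, which encodes the p97 ATPase, had 8165, 7739 and 8138 normalised counts in Calr KO and 8088, 7879.8 and 8048 in control libraries. The values interleaved, and the log2 change was 0.0013 (95% interval -0.07 to 0.07, limma adjusted p = 0.995), with a sign that turned with the scaling.

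The p97 cofactors Nploc4 and Ufd1, which bind the ubiquitin chain, did not separate either. Nploc4 had 1674, 1804 and 1909.6 in Calr KO and 1677, 1718 and 1790.3 in control libraries (log2 change 0.05, limma adjusted p = 0.84), and Ufd1 averaged 615 ± 45.5 in Calr KO and 613 ± 34.7 in control cells. Bag6, a chaperone that holds extracted membrane proteins in solution, had 3844, 3813 and 3555 in Calr KO and 3655, 3625 and 3702 in control libraries (log2 change 0.03, limma adjusted p = 0.88).

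Ubqln1, a shuttle to the proteasome, had 2654, 2636 and 2656 normalised counts in Calr KO libraries, against 2759, 2665 and 2683 in controls. Every Calr KO library was below every control, by a narrow gap (log2 change -0.03, SE 0.04, limma adjusted p = 0.87). Its paralogue Ubqln2 had a log2 change of 0.0086, and the membrane-bound p97 adaptors Ubxn4 and Faf2 had 0.0035 and -0.0012. Ubxn6, a further p97 cofactor, had 317 ± 58.8 in Calr KO and 319 ± 28.3 in control cells. Of its exon bases 81.8% are shared with Chaf1a on the opposite strand, so its value is uncertain.

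Ngly1, the enzyme that strips N-glycans from extracted proteins, was the least precise member. It had 176, 128 and 96.5 normalised counts in Calr KO and 96.8, 101 and 211 in control libraries, with control replicate 3 the highest of all 6 and far above the other controls. The group means were 134 ± 40.2 in Calr KO and 136 ± 65.0 in control cells, while the log2 change was of the other sign, 0.03, with a 95% interval of -0.68 to 0.73, so a change of the size seen for Sel1l would not have been detectable in it.

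Ratios between related members overlapped between the groups in 9 of 10 pairs. Levels can be compared between genes only per length, here as normalised counts per kb of annotated exon. The ratio of 1 gene to another was taken in each library for 10 pairs chosen by family after the values were known, with a two-sided exact permutation test whose smallest possible p is 0.1, and p-values adjusted over the 10 pairs.

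Edem1 over Edem3 was 1.31, 1.42 and 1.37 in Calr KO libraries, against 1.21, 1.01 and 1.14 in controls, the only pair of the 10 in which the groups did not overlap (exact permutation p = 0.1, adjusted p = 1). Sel1l over Syvn1, which meet in 1 complex, was 0.725 ± 0.069 in Calr KO and 0.696 ± 0.155 in control cells (exact permutation p = 0.7, adjusted p = 1). Os9 over Erlec1 was 4.46 ± 0.274 in Calr KO and 4.83 ± 0.296 in control cells (exact permutation p = 0.3, adjusted p = 1), with overlapping groups. Nploc4 over Ufd1 was 2.65 ± 0.080 in Calr KO and 2.57 ± 0.212 in control cells (exact permutation p = 0.6, adjusted p = 1).

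By level per kb the members spanned a wide range, and extraction genes stood at both ends of it. Vcp stood first at 1652 ± 49.1 in Calr KO and 1650.2 ± 22.8 in control cells. Ubqln1 followed with 601 ± 2.50 in Calr KO and 613 ± 11.3 in control cells, and Bag6 with 601 ± 25.6 in Calr KO and 589 ± 6.20 in control cells. In Calr KO cells Ubqln1 and Bag6 differed by less than their spread. Os9 was the most abundant recognition gene, at 448 ± 4.20 in Calr KO and 494 ± 17.1 in control cells, and Aup1 the most abundant of the ligase complex, at 414 ± 26.6 in Calr KO and 388 ± 3.43 in control cells. Syvn1 had 271 ± 17.5 in Calr KO and 226 ± 15.7 in control cells, and Sel1l 196 ± 5.83 in Calr KO and 156 ± 23.6 in control cells. The lowest of those tested were Tmub1, at 37.4 ± 1.97 in Calr KO and 31.2 ± 4.20 in control cells, and Ngly1, at 17.7 ± 5.33 in Calr KO and 18.1 ± 8.60 in control cells. The length is that of all annotated exons joined, not of the transcript used, so long unused exons lower a gene's value.

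**Figure D3:**
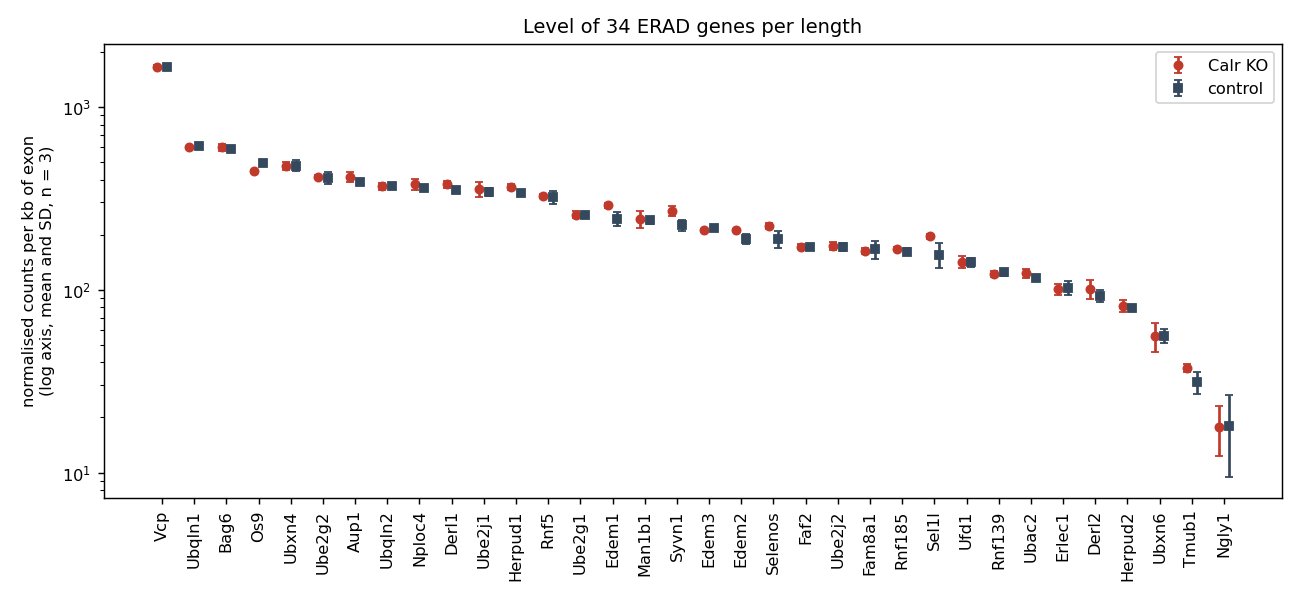
Level of each tested ERAD gene as normalised counts per kb of annotated exon (log axis), as mean and SD over 3 Calr KO and 3 control libraries, in order of the control level. Vcp is highest at 1652 in Calr KO and 1650.2 in control cells, Ngly1 is lowest at 17.7 in Calr KO and 18.1 in control cells, and the 2 groups lie close together for most genes.

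No further listed gene of the pathway passed either. Of 41 further ERAD genes, among them other ligases, erlins, rhomboid proteases, deubiquitinases and shuttle factors, 39 were tested, and 0 rose and 0 fell over all genes tested (limma), while at an unadjusted p under 0.05 there were 4 higher, 10.3% against 4.6% of all genes tested, and 2 lower, 5.13% against 4.28%. The median log2 change was -0.0022, with a range of -0.022 to 0.038 when each library was left out in turn. Every Calr KO library lay above every control in 4, 10.3% against 7.57% of all genes tested. Every Calr KO library lay below every control in 2, 5.13% against 7.28%. Ube2k, a ubiquitin-conjugating enzyme with 1 of the 2 smallest p-values, had 1624 ± 54.3 in Calr KO and 1471 ± 18.4 in control cells (log2 change 0.14, limma adjusted p = 0.44). Dnajb9, an ER co-chaperone that guides ERAD substrates, had a log2 change of 0.07 and was chosen after its values were seen.

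Of 32 proteasome subunits, where extracted substrates end, 0 passed over all genes tested (limma), and at an unadjusted p under 0.05 there were 3 higher, 9.38% against 4.6% of all genes tested, and 0 lower, against 4.28%. The median was 0.024, with a range of 0.0011 to 0.042 when each library was left out in turn. In 6 subunits, 18.8% against 7.57% of all genes tested, every Calr KO library lay above every control. In 0 did every Calr KO library lie below, against 7.28% of all genes tested. Psmc3 (log2 change 0.14, limma adjusted p = 0.46) and Psmc5 (0.11, limma adjusted p = 0.51), ATPases of the proteasome cap, had the smallest p-values. Of 20 ER folding factors, 13 rose and 0 fell over all genes tested (limma), with a median of 0.48. Of all genes tested 0.197% rose and 0.0833% fell. At an unadjusted p under 0.05 (limma) 16 factors were higher, 80% against 4.6%, and 0 lower, against 4.28%. In 15, 75% against 7.57%, every Calr KO library lay above every control, and in 0 below, against 7.28%. The count of 13 rests on the variance prior that follows the mean. With 1 prior for all genes 0 passed, at a lowest limma adjusted p of 0.065. With each library left out in turn 9 to 12 did. The fitted change was above 0 for 18 or 19 of the 20 in every setting. Among them Sdf2l1 rose by 0.79, Pdia4 by 0.77, Pdia3 by 0.68, Pdia6 by 0.62, Hspa5 by 0.50 and Hsp90b1 by 0.50. The highest fitted change of an ERAD member, 0.34 for Sel1l, was lower than the median of the folding factors. That the lists differ was not tested.

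**Figure D4:**
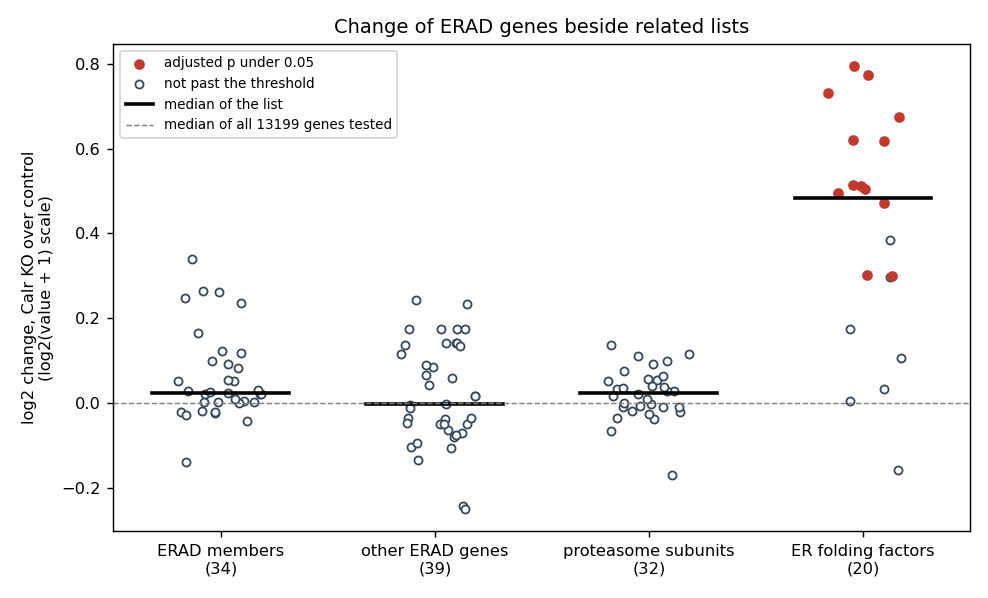
Fitted log2 change (Calr KO over control) of each gene in the ERAD list and in 3 related lists, with list medians as bars and the median of all genes tested as a dashed line; filled red points passed the adjusted threshold. The medians are 0.024 for the ERAD members, -0.0022 for other ERAD genes, 0.024 for proteasome subunits and 0.48 for ER folding factors, of which 13 of 20 passed here and 0 with 1 variance prior for all genes.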

How the data were processed

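Each gene and library has 1 signal value, deposited by the authors as a count normalised with DESeq2, per the labels. STAR 2.6.1d, Salmon 0.14.1, DESeq2 1.34.0 and mm10 are named in the submitters' processing notes, without roles; the annotation release and strand setting are not given in the sources used here. Libraries came from total RNA with a SMARTer kit, and all carry the same batch label. Only 3.44% to 4.31% of values of 100 to 1000 estimated reads were whole within 0.02. Since reads could not be restored, the test was not one for counts. Depth is therefore known only approximately, and no counting intervals are given.

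Values were analysed as log2(value + 1) in limma 3.58.1 (R 4.3.3), two-sided, with a variance prior fitted to the mean; p-values of all 13199 tested genes were adjusted together by Benjamini and Hochberg's method, with a threshold of 0.05. The scale understates changes of low genes. Means are ± SD, n = 3. The members, steps and lists were chosen with earlier results of these data known. Values of every library were given for the 3 members of each step with the smallest p, the most abundant per length, and any with an unadjusted p under 0.05; from the other lists, up to 6 genes that passed, or else the 2 with the smallest p. The values of some single genes are left out. Exons and lengths are from GENCODE M21 (GRCm38), in which exons of 11 of the 35 members share bases with another gene. Hm13 was found under its RefSeq synonym.

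Alternatives were pseudocounts of 0.5 and 5, means of at least 1 or 50 or no filter, equal totals, upper quartile and TMM scaling (computed on the values), 1 variance prior for all genes, a block for the replicate number, and each library left out in turn.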

Additional observations from a re-analysis of the deposited data

How the results depend on the processing

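Under all 16 alternatives 0 members passed over all genes, in either direction (limma), and the lowest adjusted p of any member ran from 0.061 (Sel1l, without control replicate 2) to 0.56 (with 1 variance prior for all genes). Calr stayed past the threshold in each, between -1.31 and -1.26. With each library left out in turn, the members with an unadjusted p under 0.05 numbered 3 to 4 higher and 0 to 1 lower. The members whose groups did not overlap numbered 9 to 12 higher and 2 to 3 lower, but leaving out a library can only keep or raise these counts. With equal totals or TMM scaling they were 8 higher and 2 lower. The median log2 change with each library left out in turn was 0.025 to 0.041. By step it was -0.013 to 0.033 in recognition, 0.070 to 0.12 in the ligase complex, -0.020 to 0.038 in the ubiquitin enzymes and -0.0039 to 0.017 in extraction. Over all genes 14 to 25 were higher and 4 to 9 lower. With 1 variance prior 1 gene was higher and 1 lower, and 0 of 20 ER folding factors passed. That prior draws the variances of low and high genes toward the same value. With the replicate number as a block 5 genes were lower over all genes. The values showed no sign that the numbers pair the wells: deviations of same-numbered libraries correlated at -0.056, -0.011 and 0.0014. No library of replicate 1, 2 or 3 in Calr KO correlated best with its own number. Shared handling of same-numbered wells was not tested. The sign turned for Vcp with equal totals (-0.00094), TMM scaling (-1.7e-05) and libraries left out (-0.012 to 0.026), and, with a library left out, for Ube2j1 (-0.021 to 0.11), Ube2j2 (-0.021 to 0.057), Ube2g2 (-0.033 to 0.074) and Ngly1 (-0.20 to 0.39); the cause was not tested. The other 13 members refitted singly, which do not include Derl3, kept their sign in all 16 settings. The precision of Ngly1 is limited by the spread between wells.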
